A study of Mus musculus with 34 samples.

Results

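The genes described here encode the proteins of the cytosolic ribosome. They were chosen by name, as the protein-coding genes called Rpl or Rps with a number, Rplp0 to Rplp2, or Rpsa, which gave 83 of the 55487 genes in the deposited tables. Of these, 43 encode proteins of the large subunit, 31 proteins of the small subunit, 3 the stalk of the large subunit, and 6 are paralogs of a core gene (Rpl3l, Rpl7l1, Rpl10l, Rpl22l1, Rpl39l and Rps27l). The RNA came from liver of male mice aged 3 months that had received an intraperitoneal injection, and polyadenylated RNA was sequenced. The first table holds wild-type mice given PBS (6 libraries), wild-type mice given TNFa for 2 hours (6), PiZ mice given PBS (5) and PiZ p50-KO mice given PBS (5). PiZ mice carry a human transgene whose product, the Z form of alpha-1 antitrypsin, accumulates in the endoplasmic reticulum of hepatocytes, and p50-KO (-/-) is the label for loss of the p50 subunit of NF-kB, encoded by Nfkb1. The second table holds wild-type mice given DMSO (6) and wild-type mice given tunicamycin for 24 hours (6). Tunicamycin blocks N-linked glycosylation and so disturbs protein folding in the endoplasmic reticulum. The tables were deposited separately, and no value of one was set against the other.

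Ribosomal proteins assemble with ribosomal RNA in the nucleolus into a small subunit, which reads the messenger RNA, and a large subunit, which joins amino acids. Their messages are among the most abundant of a cell and typically begin with a C followed by a run of pyrimidines, the 5′ terminal oligopyrimidine (TOP) tract, through which mTORC1 and LARP1 control their translation. In liver, which secretes large amounts of protein, the supply of ribosomes is tied to nutrient state and growth.

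The starts of several members are shown because the TOP tract is the sequence these genes are known for and because these genes are described below. Each window is 30 bases of GRCm38.p6 around a start from RefSeq, 15 before it and 15 from it on. Capitals mark a run searched for on the sense strand only, namely a C followed by at least 4 bases that are each C or T, which begins no more than 5 bases from the annotated start. Rpl34 and Rpl22 have 2 starts each, and for such genes the start with the longest run of pyrimidines from a C is shown.
Rpl22l1, chr3:28805493-28805522, plus strand: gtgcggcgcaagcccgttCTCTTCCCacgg
Rpl12, chr2:32961697-32961726, plus strand: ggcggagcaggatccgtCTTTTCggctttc
Rpl13a, chr7:45128731-45128760, minus strand: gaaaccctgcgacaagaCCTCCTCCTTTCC
Rplp0, chr5:115559452-115559481, plus strand: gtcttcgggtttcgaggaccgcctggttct
Rps6, chr4:86857353-86857382, minus strand: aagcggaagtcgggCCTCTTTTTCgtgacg
Rps18, chr17:33955651-33955680, minus strand: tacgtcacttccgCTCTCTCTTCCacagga
Rpl34, chr3:130730323-130730352, minus strand: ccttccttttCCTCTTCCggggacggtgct
Rpl22, chr4:152324421-152324450, plus strand: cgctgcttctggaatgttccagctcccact
Rps2, chr17:24720048-24720077, plus strand: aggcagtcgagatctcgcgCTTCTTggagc
Such a run was found at 29 of the 63 members with a start in the RefSeq table (46.0%) and at 3767 of 17491 protein-coding genes (21.5%). A gene with several starts was counted if any of them had the run. In the windows of Rplp0 and Rpl22 no such run begins within 5 bases of the annotated start, which says nothing about the messages' true starts. The Rpl22 window lies upstream of base 152325742, where the gene begins in the annotation used for exon lengths.

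Depth ran from 35.5 to 54 M reads per library in the PiZ and TNFa table, apart from WT PBS 2 with 10.2 M, and from 34.3 to 47.8 M in the tunicamycin table. Protein-coding genes took 72.2% of the reads of WT PBS 2 and 97.3% to 97.7% elsewhere in the first table. Albumin (Alb), the main secreted protein of hepatocytes, stood at 12.22 log2 CPM in WT PBS 2 (CPM, a gene's reads per M reads of the library, where M is mega). The 79 members tested lay a median of 2.04 log2 units lower in WT PBS 2 than in the other WT PBS libraries, and this library was set apart from every test below unless stated. WT DMSO 2 also stood apart, with 65 of 79 members below the median of the other DMSO libraries. Over all 79 the median difference was -0.87 log2 units. WT DMSO 2 stays in the tests, with results given without it. PiZ 4 held 66 of 79 members below the median of the other PiZ libraries. Nfkb1 lay at 4.51 and 4.86 log2 CPM in the libraries labelled PiZ p50KO 1 and 2, against 3.31, 3.74 and 3.37 in the other 3 of that group, 3.92 to 4.34 in WT PBS and 4.62 to 5.58 in PiZ. In the libraries labelled PiZ p50KO 1 and 2 Nfkb1 thus lay above every WT PBS library used, which goes against their label as knockouts. Which part of the gene is deleted is not given in the sources used here, so RNA from outside that part could still be counted. Nothing in the labels says that each library came from a separate mouse, so p-values measure the spread between these libraries.

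The 83 genes took 1.37% to 1.57% of all reads in the 5 other WT PBS libraries and 0.385% in WT PBS 2. After TNFa they took 1.29% to 1.51%. The PiZ libraries 1 to 5 gave 2.08%, 2.07%, 1.96%, 1.47% and 1.88%, a mean of 1.89% ± 0.25 (SD, n = 5), and PiZ 4 alone lay within the WT PBS range. PiZ p50KO 1 to 5 gave 1.34%, 1.29%, 1.36%, 1.73% and 1.75%, so that 3 libraries lay at or below the lowest WT PBS library and 2 above the highest. The DMSO libraries ranged from 0.718% in WT DMSO 2 to 1.19%, and the tunicamycin libraries from 2.08% to 4.03%, with means of 1.05% ± 0.169 (SD, n = 6) and 3.1% ± 0.703 (SD, n = 6). The DMSO and tunicamycin ranges did not overlap. In whole liver, fewer cells of a type and less RNA per cell cannot be told apart, and neither can more ribosomal protein RNA and less of other RNA in a share of reads.

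**Figure D1:**
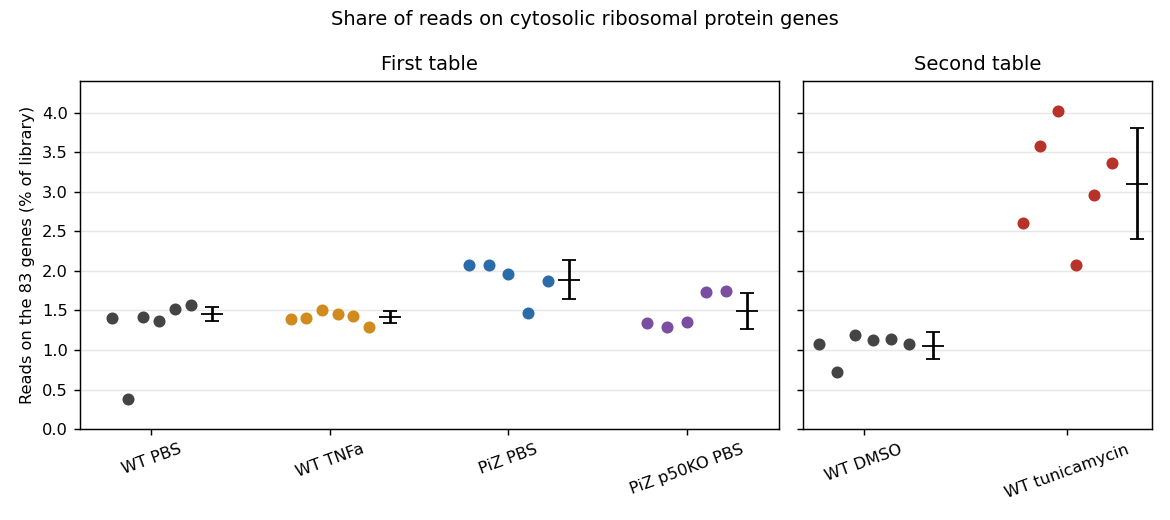
Percent of each library's reads on the 83 cytosolic ribosomal protein genes, 1 point per library, with the mean ± SD of each group beside it (WT PBS 2, the lowest point of WT PBS at 0.385%, is left out of the mean). The tunicamycin libraries, from 2.08% to 4.03%, lie above every DMSO library, and PiZ 4, at 1.47%, lies below the other PiZ libraries.

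Levels within a library can be compared between genes only per length, here as CPM per kilobase of exons in WT PBS. The length is that of all annotated exons of a gene joined, from 383 bases for Rpl36 to 6270 for Rps15a. It thus depends on which transcripts are annotated, and so does the order of the genes. Among the 77 members other than paralogs the median was 91.9 CPM per kilobase, with quartiles of 48.4 and 151. Rplp1, an acidic stalk protein that recruits elongation factors, was highest at 589, followed by Rpl36 of the large subunit at 492, Rps15 of the small subunit at 389 and Rplp0, the base of the stalk, at 307. Rplp1 and Rps15 are also short, at 499 and 630 bases. By CPM alone Rpsa was highest at 641, and Rpl36 stood at 188. At the other end per kilobase were Rps10 at 0.288, Rpl24 at 1.37 and Rpl13a at 5.72. The exons of these 3 overlap, on the same strand, those of RPS10-NUDT3 over 20.6%, Gm28037 over 47.0% and Gm45713 over 35.4% of their length, and how reads shared between overlapping genes were counted is not given in the sources used here. Gm28037 and Gm45713 had no reads in any of the 22 libraries of the first table or the 12 of the second. Whether shared reads were left uncounted was not tested. A median of 43.9% of the 50-base stretches of a member also occur in another gene, and over 50% of the stretches do so in 28 members, so single values of these genes are uncertain. Of the 83 genes, 79 passed the filter for low values (more than 1 CPM in 5 or more libraries of the PiZ and TNFa table, or in 6 or more of the tunicamycin table) in each table. Rpl3l, Rpl10l and Rpl39l, known from muscle and testis, failed it in both tables, Rps10 in the first and Rpl24 in the second.

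Tunicamycin was compared with DMSO to see how these genes respond to a drug that disturbs protein folding. All 79 members tested rose after 24 hours and none fell (background: of 13388 genes, 45.3% were called higher and 13.5% lower), with a median log2 fold change of 1.54 against 0.38 over all genes tested. On the log2 scale, 1 unit is a change by a factor of 2. The tunicamycin libraries lay entirely above the DMSO libraries for 77 of the 79, against a background of 28.5% of genes higher, and the exceptions were Rps2 and Rpl23. The median was 1.62 for the 31 small subunit genes, 1.49 for the 42 large subunit genes tested, 2.21 for the 3 stalk genes and 1.03 for the 3 paralogs tested. Calls are from limma with Benjamini-Hochberg adjustment over all genes tested, at 0.05.

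When every library was shifted to the same median over the genes tested, 77 members were called higher (background 24.1%) and none lower (background 29.2%), with a median of 1.09 against -0.07 for all genes. Without WT DMSO 2 all 79 were called higher (background 47.5%), with a median of 1.40, or 1.02 with the shift added. Hepatocyte markers summed to 89900 to 120000 CPM in DMSO and 30600 to 76300 CPM in tunicamycin libraries. Of these markers 3 of 10 were called lower as deposited and 7 after the shift, and none was at 0 in a whole group. Alb ranged from 16 to 16.44 log2 CPM in DMSO and from 14.09 to 15.63 after tunicamycin. Macrophage markers were lower in 6 of 13 as deposited and 12 after the shift, endothelial markers in 2 and 6 of 6, and erythroid markers in 3 and 5 of 5. Pancreatic acinar markers were higher in 3 of 4 tested, with sums of 10.1 to 26.6 CPM in DMSO, where Amy2a5 and Prss1 were at 0 in every library, and 10.6 to 765 CPM after tunicamycin. The part of these markers in the values of the ribosomal protein genes was not tested.

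**Figure D2:**
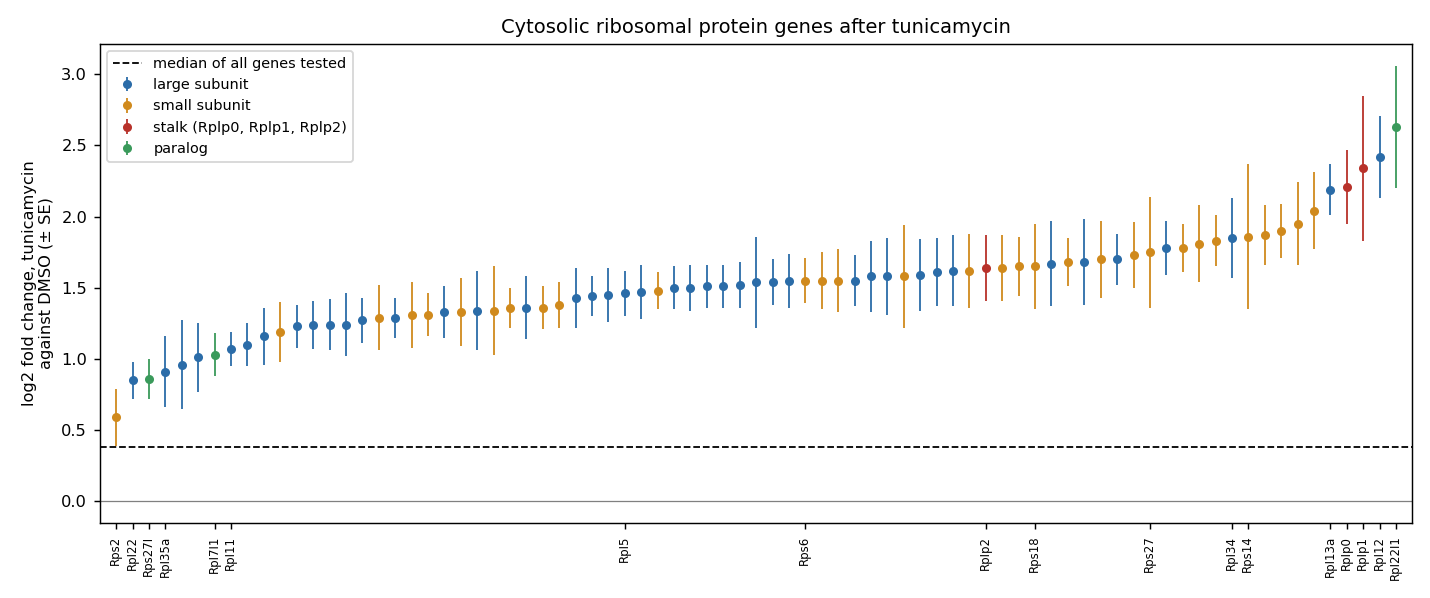
Log2 fold change of each of the 79 members tested, tunicamycin against DMSO (6 libraries each), ordered from least to greatest, with bars for the standard error and colours for the part of the ribosome, and with 18 of them named on the axis. Every point lies above the dashed line, the median of all genes at 0.38, and the values run from 0.59 for Rps2 to 2.63 for Rpl22l1.

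The stalk and its base gave some of the greatest rises. Rpl12, which anchors the stalk to the large subunit, ran from 6.15 through a median of 7.21 to 7.37 log2 CPM in DMSO and from 8.69 through 9.6 to 10.25 after tunicamycin, with no overlap. Its means were 7.08 ± 0.46 and 9.49 ± 0.63 (SD, n = 6 each), a log2 fold change of 2.42 (SE 0.29, limma adjusted p = 2.33e-05). Rplp0 ran from 7.44 through 8.58 to 8.75 in DMSO and from 9.95 through 10.76 to 11.14 after tunicamycin. Every tunicamycin library again lay above every DMSO library, and the log2 fold change was 2.21 (SE 0.26, limma adjusted p = 1.93e-05). Rplp1 ran from 5.43 through 8.44 to 8.67 in DMSO and from 9.28 through 10.56 to 10.94 after tunicamycin. Its log2 fold change of 2.34 (SE 0.51, limma adjusted p = 0.00153) fell to 1.84 without WT DMSO 2, its lowest DMSO library. Rplp2, the partner of Rplp1, rose by 1.64.

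Among the other large subunit genes Rpl13a rose most, from a range of 2.74 to 3.61 log2 CPM in DMSO (median 3.16) to 4.95 to 5.85 after tunicamycin (median 5.3). It rose by 2.19 (SE 0.18, limma adjusted p = 1.3e-06), and WT DMSO 2 was here the highest DMSO library. Rpl5 and Rpl11, which together with a ribosomal RNA bind the p53 regulator Mdm2, rose by 1.46 (SE 0.16) and 1.07 (SE 0.12). Rpl5 ran from 7.15 to 7.52 in DMSO and from 8.13 to 9.14 after tunicamycin, and Rpl11 from 7.14 to 7.36 and from 7.92 to 8.47. Neither gene's ranges overlapped. The small subunit gene Rps6, whose protein is the classical substrate of S6 kinase, ran from 7.2 to 7.38 in DMSO and from 8.29 to 9.36 after tunicamycin, a rise of 1.55 (SE 0.16, limma adjusted p = 8.08e-06).

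Rps2, a small subunit protein near the path of the messenger RNA, gave the least rise. It ran from 7.23 through 7.4 to 8.22 log2 CPM in DMSO and from 7.61 through 8.02 to 8.63 after tunicamycin. The groups overlapped because WT DMSO 2 was the highest DMSO library for this gene. Rps2 rose by 0.59 (SE 0.2, limma adjusted p = 0.0223), and 0.14 (limma adjusted p = 0.64) after the shift. Leaving out 1 library at a time gave adjusted p-values from 0.00248 to 0.0511, with 9 of 12 past the threshold. Rpl22, a large subunit protein that also binds other RNAs, rose by 0.85, Rps27l by 0.86 and Rpl35a by 0.91.

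To see which members parted from the others, the median over the members was subtracted in each library, which removes any scaling between libraries. Of the 79, 10 were then higher than the other members (background of this test: 3.49% of genes) and 10 lower (79.1%). The greatest differences upward were Rpl22l1 at 1.12, Rpl12 at 0.91 and Rplp1 at 0.83, and downward Rps2 at -0.91, Rpl22 at -0.65 and Rps27l at -0.65. Without WT DMSO 2 the number of members apart in either direction was 28 (background 84%), and without WT DMSO 4 it was 13 (background 81%). Members with a run of pyrimidines at the start rose by a median of 1.51 (29 genes), members without one by 1.5 (30 genes) and members with no start in the table by 1.58 (20 genes). Each member was also correlated with the median of all members, which contains it, over the libraries of all groups of a table. The median Spearman correlation was 0.92 over the 12 libraries of the second table and 0.63 over 21 libraries of the first. The lowest were Rps2 at 0.30 and Rps29 at -0.18. These values describe libraries that share a scaling. They hold the difference between groups, so they cannot show whether members move together within a group.

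The paralogs were set against their core genes within each library. After tunicamycin Rpl7l1 and Rps27l were lower against theirs, narrowly past the threshold (exact permutation, adjusted p = 0.0487 each). Rpl7l1 lost this call in every setting that left out 1 library. Paralogs can replace or accompany the core protein in ribosomes, and Rps27l is also known as a p53 target. The difference in log2 CPM between paralog and core gene in the same library was tested by an exact two-sided permutation test over libraries, with 15 tests in all over 3 pairs and 5 comparisons. Rpl22l1 minus Rpl22 was -4.81, -6.82, -4.84, -4.85, -4.98 and -4.63 in DMSO 1 to 6. After tunicamycin it was -5.03, -2.71 and -2.62 in replicates 1, 5 and 6 and -3.91, -3.35 and -2.68 in the 3 libraries whose number could not be matched to a label. All tunicamycin libraries but replicate 1 lay above the DMSO range. The mean difference rose by 1.77, with an exact permutation p of 0.013 and 0.0649 after adjustment, which missed the threshold, and without replicate 1 it was 2.10.

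Rpl7l1 minus Rpl7 went from -1.88 ± 0.24 to -2.38 ± 0.19 (SD, n = 6 each), a fall of the paralog against its core gene (difference -0.50, exact permutation p = 0.00649, adjusted 0.0487). Rps27l minus Rps27 went from 0.36 ± 0.86 to -0.52 ± 0.29 (difference -0.88, exact permutation p = 0.00649, adjusted 0.0487). The DMSO values of Rps27l minus Rps27 were 0.1, 2.1, -0.01, 0.1, 0.06 and -0.2, so WT DMSO 2 lay far above the rest, and without it the difference was -0.53. Leaving out 1 library at a time moved the adjusted p to between 0.0649 and 0.0866 for Rpl7l1 and between 0.0325 and 0.0866 for Rps27l. The smallest p that 6 against 6 libraries can give is 0.00216. In the other 4 comparisons no pair passed, with adjusted p-values of 0.0893 or more.

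**Figure D3:**
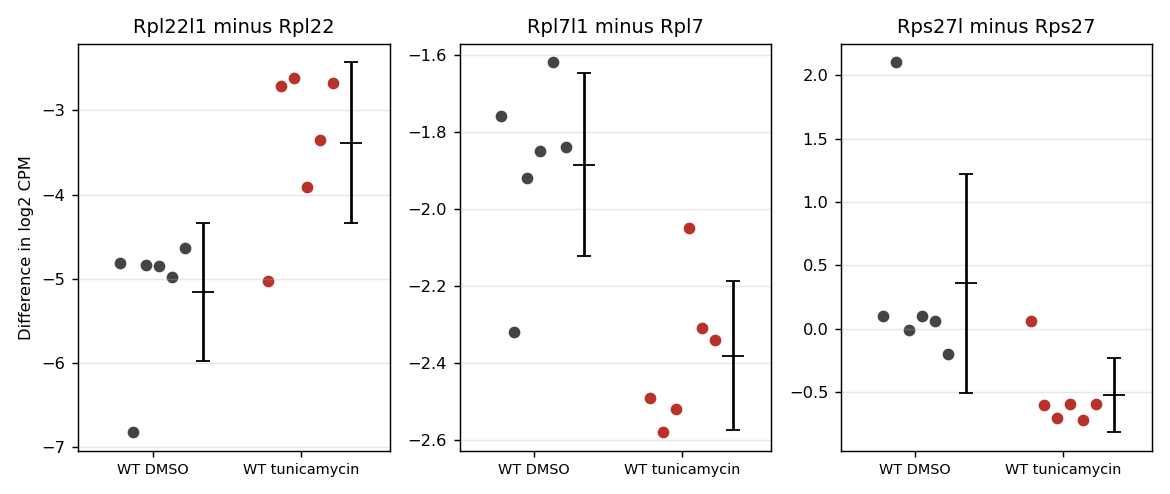
Difference in log2 CPM between a paralog and its core gene, 1 point per library of the second table, with the mean ± SD of each group (n = 6). Rpl22l1 lies nearer to Rpl22 in 5 of the tunicamycin libraries, while the means of Rpl7l1 and Rps27l against their core genes are lower, with overlap. The single DMSO points at -6.82, -2.32 and 2.1 are WT DMSO 2.

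Genes that build and use ribosomes were read from further lists, against 45.3% of all genes called higher as deposited and 24.1% after the shift. Of 36 factors of ribosome biogenesis, 35 rose and none fell, with a median log2 fold change of 1.52, among them Nop58, a core protein of box C/D particles that modify ribosomal RNA, at 2.65 (SE 0.42) and Gnl3, a nucleolar GTPase, at 2.36. All 36 translation initiation factors rose (median 1.03), including Eif6, which keeps new large subunits from joining too early, at 2.13, and Eif2s1, the subunit whose phosphorylation slows translation in stress, at 1.70. All 16 genes of elongation and other TOP messages rose (median 1.27), led by the snoRNA hosts Snhg1 at 5.11 and Snhg12 at 4.30. Of 14 RNA polymerase I genes 13 rose (median 1.06), with Polr1c and Polr1e each at 1.74. The 5 ribosomal protein genes with other names all rose (median 1.10), including Rack1 at 1.76 and Rpl36al at 1.32. After the shift 31 of the 36 biogenesis factors, 25 of the 36 initiation factors, 15 of the 16 elongation and TOP messages, 11 of the 14 RNA polymerase I genes and 4 of the 5 genes with other names were higher, and none of these lists had a gene called lower. Over all genes the median was 0.38 as deposited.

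Mitochondrial ribosomal proteins, which serve a separate ribosome, rose in 53 of 77 (median 0.67), and after the shift 30 were higher and 6 lower. Mrps18b was at 1.83 and Mrpl24 at 1.69. Among 14 genes of ribosome quality control 11 rose as deposited, and 8 were higher and 2 lower after the shift, with Ascc3, a helicase that splits collided ribosomes, at 1.96 and Pelo, which rescues stalled ones, at 1.88. Of 19 genes of mTORC1 and S6 kinase control 10 rose and 2 fell as deposited, a share near that of all genes, and 5 were higher and 2 lower after the shift. Myc, a regulator of ribosome production, rose by 3.5 and Ddit4, an inhibitor of mTORC1, by 3.03, while Sesn1 fell by 0.90 and Eif4ebp2 fell by 0.82.

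**Figure D4:**
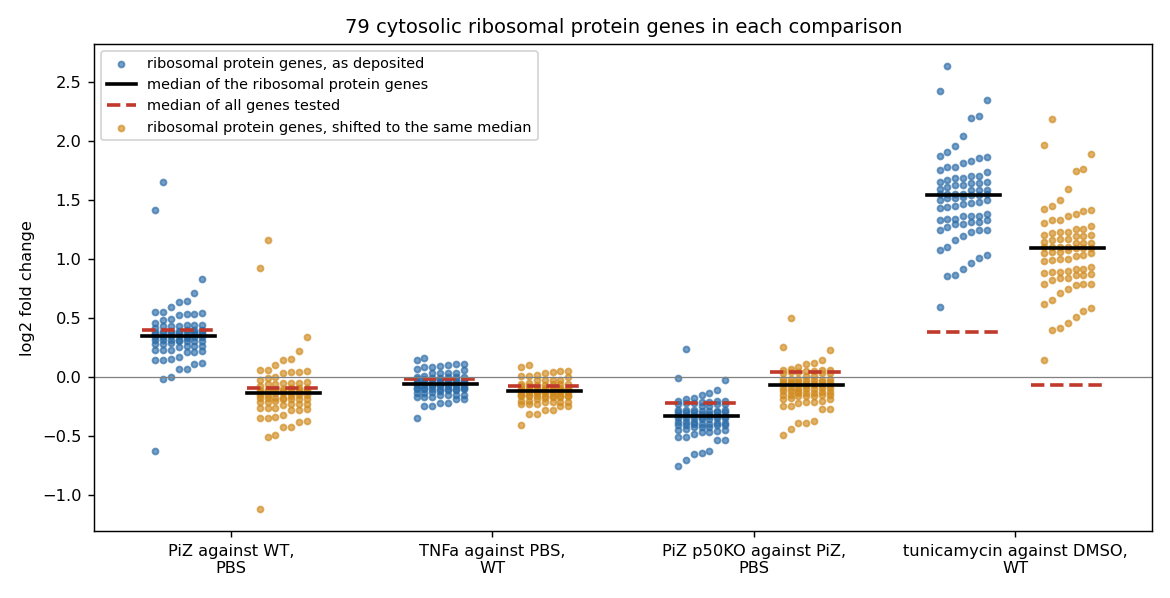
Log2 fold changes of the 79 members tested in each comparison, as deposited (blue) and after shifting every library to the same median over all genes tested (orange). Solid bars are the medians of the members and dashed bars those of all genes. The members stand above all genes after tunicamycin (1.54 against 0.38) and close to them in the other comparisons.

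PiZ liver was compared with wild-type liver, both given PBS, to see what the Z variant changes. As deposited, 47 of 79 members rose (background 45.6%) and none fell (background 6.19%). The median log2 fold change of the members was 0.35, next to 0.40 for all genes tested. The groups did not overlap for 19 members, against a background of 31.4%. After the shift to equal medians 1 member was higher (background 17.4%) and 10 were lower (background 22.5%), with a median of -0.14 against -0.09 for all genes, so that the median turned sign with the scaling. With WT PBS 2 in the fit, 14 members were called higher (background 15.1%) at a median of 0.69. The comparisons of PiZ, of TNFa and of PiZ p50KO with WT PBS share the WT PBS libraries, and the 2 comparisons with PiZ share the PiZ libraries.

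Single members stood out more than the group. Rpl29, a small basic protein of the large subunit, was 3.73, 4.21, 3.69, 4.13 and 3.97 log2 CPM in WT PBS 1, 3, 4, 5 and 6. In PiZ 1 to 5 it was 6.51, 6.52, 4.79, 3.77 and 6.39. PiZ 1, 2 and 5 were high, PiZ 3 lay between, and PiZ 4 lay within the wild-type range. The log2 fold change was 1.65 (SE 0.55, limma adjusted p = 0.0158), and 1.16 after the shift, where it missed the threshold (limma adjusted p = 0.0838). In PiZ p50KO 1 to 5 Rpl29 was 4.19, 4.31, 6.52, 7.14 and 7.03, low in the libraries labelled 1 and 2 and high in the other 3, and against WT PBS it was higher by 1.89 (SE 0.55, limma adjusted p = 0.0301). Of its 50-base stretches 47.9% occur in other genes.

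Rps18, a protein of the small subunit head, was 6.70, 6.98, 6.38, 7.04 and 7 log2 CPM in WT PBS and 8.59, 8.56, 8.18, 7.35 and 8.45 in PiZ 1 to 5. The groups did not overlap, with PiZ 4 nearest to wild type. Rps18 rose by 1.41 (SE 0.28, limma adjusted p = 0.000312) and 0.92 (limma adjusted p = 0.00548) after the shift, where it was the 1 member called higher. In PiZ p50KO 1 to 5 it was 6.84, 6.68, 7.31, 8.23 and 8.34, at the wild-type level in libraries 1 and 2. Of its 50-base stretches 86.7% occur in other genes, so reads could have been split between copies.

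Rpl34, a large subunit protein, went the other way. It was 6.76, 6.91, 6.59, 6.84 and 6.88 log2 CPM in WT PBS and 6.6, 6.53, 6.17, 5.11 and 6.42 in PiZ 1 to 5, with PiZ 1 overlapping the wild-type range and PiZ 4 lowest. The log2 fold change of -0.63 missed the threshold (SE 0.28, limma adjusted p = 0.0608), while after the shift it was -1.12 (limma adjusted p = 0.000657). In PiZ p50KO 1 to 5 it was 6.75, 6.55, 4.88, 6.26 and 6.32. Against the median of the members, 5 were called higher in PiZ (background 22.1%) and 2 lower (background 10.5%): Rpl29 by 1.35, Rps18 by 1.11, Rpl41 by 0.35, Rps12 by 0.33 and Rpl12 by 0.29, and Rpl34 by -0.93 and Rpl35a by -0.29.

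**Figure D5:**
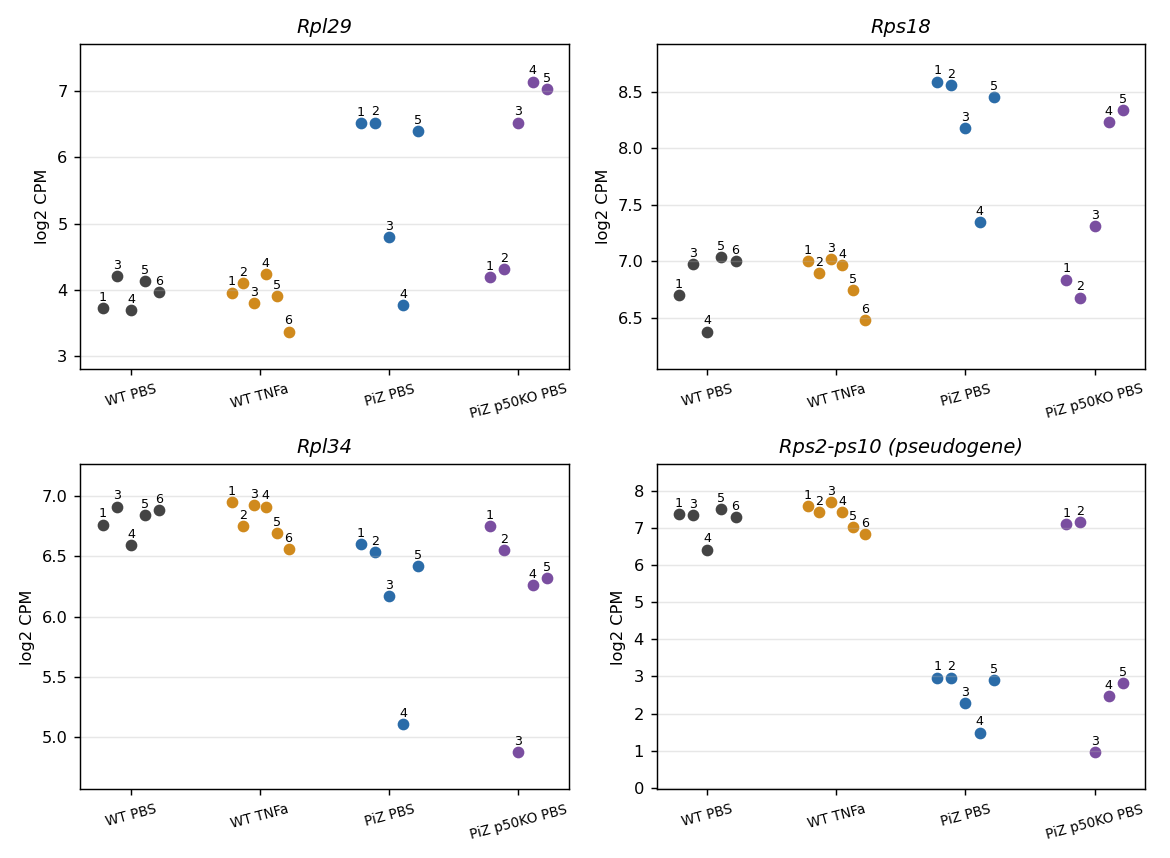
Log2 CPM of Rpl29, Rps18, Rpl34 and the pseudogene Rps2-ps10 in each library of the first table, numbered by replicate, without WT PBS 2. In PiZ, library 4 is the lowest of its group for all 4 genes, and in PiZ p50KO libraries 1 and 2 lie in or near the wild-type range for Rpl29 and Rps2-ps10 while 3, 4 and 5 lie far from it.

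Other members rose by less. Rpl41, the smallest ribosomal protein, was 7.82 to 8.13 log2 CPM in WT PBS and 8.38 to 8.76 in PiZ, with no overlap and a log2 fold change of 0.64 (SE 0.13, limma adjusted p = 0.000395). Rps12, a small subunit protein, rose by 0.63 (SE 0.12, limma adjusted p = 0.000295), and its groups overlapped only through PiZ 4 at 8.29 and WT PBS 6 at 8.3. Rpl12 rose by 0.59, Rplp0 by 0.46, Rpl5 by 0.34, Rpl11 by 0.31 and Rps6 by 0.29. After the shift Rplp0 was at -0.03, Rpl5 at -0.15, Rpl11 at -0.18 and Rps6 at -0.20, and none of the 4 passed. The call of Rplp0 as deposited held in 3 of 10 settings that left out 1 library. Leaving out PiZ 4 gave 60 members called higher (background 49.7%), and leaving out PiZ 2 gave 33 (background 39.9%).

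Among related genes in PiZ, to be read against 45.6% of all genes called higher as deposited, 21 of 36 biogenesis factors rose as deposited and 1 was higher and 4 were lower after the shift. Mdn1, the AAA protein that strips factors from new large subunits, was at 1.13 (SE 0.25) and Nop58 at 1.07. Of the initiation factors 19 of 36 rose, while after the shift none was higher and 16 were lower, with Eif6 at 0.91 as deposited. Of the elongation and TOP messages 7 of 15 rose, and 7 were lower after the shift, with Snhg1 at 1.25 as deposited. Mitochondrial ribosomal proteins gave 7 higher and 5 lower of 77, and after the shift 51 of 77 were lower with a median of -0.49 against -0.09 for all genes. Mrpl34 was at -0.41 and Mrpl14 at -0.36 as deposited. Of the 19 genes of the mTORC1 list 7 rose and 1 fell as deposited, while 1 was higher and 5 were lower after the shift, with Myc at 2.53 (SE 0.35) and Eif4ebp3, a repressor of cap-dependent initiation, at -1.70.

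Markers of other cells moved in the same comparison, to be read against 45.6% of all genes called higher as deposited and 6.19% lower. Of the Kupffer cell and macrophage markers 13 of 14 rose, and they summed to 281 to 356 CPM in WT PBS and 915 to 1350 CPM in PiZ. Of 16 cell cycle genes tested 16 rose, with sums of 41.1 to 51.3 CPM and 128 to 163 CPM, and 7 of 7 stellate and fibroblast markers rose, with sums of 135 to 173 CPM and 595 to 884 CPM. Hepatocyte markers fell in 5 of 10, with sums of 88700 to 119000 CPM and 68300 to 101000 CPM. Cholangiocyte markers rose in 4 of 5, with sums of 23.4 to 27.0 CPM and 83 to 125 CPM, and endothelial markers in 5 of 6, with sums of 161 to 203 CPM and 229 to 287 CPM. After the shift 13 macrophage, 14 cell cycle, 6 stellate and fibroblast, 3 cholangiocyte and 1 endothelial markers were higher (background 17.4%). Hepatocyte markers were then lower in 8 of 10 (background 22.5%). No marker of these lists was at 0 in every library of a group. Their part in the values of the ribosomal protein genes was not tested.

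The libraries labelled PiZ p50KO were then compared with PiZ, with the reservation that Nfkb1 goes against the label in 2 of them. Of the 79 members 33 were lower in PiZ p50KO than in PiZ (background 21.6%) and none was higher (background 3.36%), with a median of -0.33 against -0.22 for all genes. The groups did not overlap for 8 members, against a background of 11.9%. After the shift 1 member, Rps12, was lower (background 9.11%) and none higher (background 9.84%), with a median of -0.07 against 0.04. The count was 17 without the library labelled PiZ p50KO 2 (background 16.9%) and 47 without PiZ 4 (background 25.5%). Without the libraries labelled PiZ p50KO 1 and 2 it was 5 (background 9.62%), and the shifted median was 0.03. It was 0 with WT PBS 2 in the fit (background 2.96%), where 2 had an unadjusted p below 0.05.

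Rps12 was 8.76, 8.78, 8.93, 8.29 and 8.67 log2 CPM in PiZ 1 to 5 and 7.92, 7.71, 8.11, 8.21 and 8.22 in PiZ p50KO 1 to 5. Every PiZ library lay above every p50KO library. The log2 fold change was -0.65 (SE 0.12, limma adjusted p = 0.000836), it was -0.39 (limma adjusted p = 0.037) after the shift and -0.37 against the median of the members, where it was the 1 member called (background 7.66% lower), and as deposited it passed in 10 of 10 settings that left out 1 library. The call was lost with a replicate block (limma adjusted p = 0.0544), with WT PBS 2 in the fit (limma adjusted p = 0.33), and after the shift without the libraries labelled PiZ p50KO 1 and 2 (limma adjusted p = 0.29). Among members past the threshold the next greatest falls were those of Rps24, Rps19, Rps9 and Rps15a, all of the small subunit. Rps24 fell by 0.63, Rps19 fell by 0.53, Rps9 fell by 0.53 and Rps15a fell by 0.51. When 1 library was left out at a time, Rps24 passed in 6 of 10 settings and Rps9 in 4 of 10. Rps18 at -0.75, Rpl24 at -0.70 and Rpl22l1 at -0.64 did not pass. Of the core large subunit genes 18 of 43 fell, of the small subunit genes 13 of 30 tested and of the stalk genes 1 of 3 (background 21.6%). After the shift Rps12 was the 1 member lower (background 9.11%). Rpl29 was at 0.24 and Rpl34 at -0.01, and neither passed (limma adjusted p = 0.784 and 0.978).

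Among related genes, to be read against 21.6% of all genes called lower, 6 of 36 biogenesis factors fell, including Nop58 at -1.02 (SE 0.26) and Gnl3 at -0.92, and Myc fell by 1.20. Of the initiation factors 6 of 36 fell and of the elongation and TOP messages 7 of 15. Eif4ebp3 rose by 1.13. After the shift 1 biogenesis factor was lower and 3 were higher (background 9.11% and 9.84%). No initiation factor was then lower and 2 were higher, and no elongation or TOP message was called in either direction. Macrophage markers fell in 14 of 14, to a summed 437 to 788 CPM, and cell cycle genes in 16 of 16 tested, to 50.5 to 75.5 CPM. Stellate and fibroblast markers fell in 6 of 7 and cholangiocyte markers in 3 of 5. Hepatocyte markers rose in 2 of 10 as deposited and were higher in 7 after the shift. The part of these markers was not tested.

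Against WT PBS, the libraries labelled PiZ p50KO showed 1 member higher, Rpl29 (background 10.5%), and none lower (background 1.14%). Against the median of the members Rpl29 was again the 1 called (background 7.32% higher). The median of the members was 0.00 against 0.19 for all genes. After the shift none was higher (background 3.2%) and 3 were lower (background 4.33%), Rpl34 by -0.87, Rpl35a by -0.45 and Rps15 by -0.35. The call of Rpl29 held in 3 of 10 settings that left out 1 library, and its adjusted p ran from 0.00672 to 0.0923. Without the libraries labelled PiZ p50KO 1 and 2, 5 members were higher (background 15.5%) and 1 was lower (background 2.85%).

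No member passed the test after 2 hours of TNFa. By limma 0 of 79 passed in either direction (background 7.63% higher and 4.05% lower), and 0 had an unadjusted p below 0.05. The median log2 fold change was -0.06 against -0.02 for all genes, and -0.12 against -0.08 after the shift, again with 0 calls (background 7.42% higher and 6.18% lower). The extremes were Rps14 at 0.16 (6.95 through 7.71 to 7.94 log2 CPM in TNFa, 6.55 to 7.99 in WT PBS) and Rpl24 at -0.35 (-2.32 through -0.3 to 0.58 in TNFa, -2.69 to 1.95 in WT PBS), and both pairs of ranges overlapped. With WT PBS 2 in the fit the median was 0.27, with no call (background 2.18% higher and 1.88% lower). Rps6 lay at 7.53 to 7.93 log2 CPM in TNFa and 7.7 to 7.81 in WT PBS, a difference of -0.03 (SE 0.08, limma adjusted p = 0.901). The library WT TNFa 4 gave 4.77 log2 CPM for Nfkb1, itself a target of NF-kB, where the remaining TNFa libraries gave 6.57 to 6.95. Among related genes Myc rose by 2.58 (SE 0.34), and 4 of 36 biogenesis factors rose, including Rrs1, which helps assemble the large subunit, at 1.78 (SE 0.26) and Nop58 at 0.78. Of the initiation factors 2 fell, Eif5 by -0.43 and Eif4a2 by -0.34.

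Spearman correlation was taken after the shift, with the groups of a table together, as a description over libraries that share a scaling. It therefore holds the difference between groups. The genes outside the family most like the median of the members were then listed. Over 12 libraries of the second table they were Timm23 (0.993) and Eef1b2, Guk1, Psmd13 and Tpt1 (0.986 each), of which Eef1b2 is a translation elongation factor and Tpt1 a known TOP message. Over 21 libraries of the first table they were Alg5 (0.903), Psmb6 (0.877), Aktip (0.874), Sbds (0.847), a factor that matures the large subunit, and Gpihbp1 (0.844).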

How the data were processed

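Per the submitters' processing notes, the tools included STAR, featureCounts of Subread, DRAGEN, bcl2fastq and edgeR, and the build was GRCm38. Settings are not given in the sources used here. Each deposited value is a gene's log2 CPM, with no further scaling seen between libraries, and a gene without reads sits at -6.52 (PiZ and TNFa table) or -6.40 (tunicamycin table). Read totals were recovered from the deposited steps between low values. Repeated gene identifiers (287) were kept once. limma 3.58.1 in R 4.3.3 (lmFit, eBayes with a trend) was fitted to 13285 and 13388 genes above 1 CPM in at least 5 and 6 libraries, with all groups of a table in 1 fit, two-sided, at an adjusted p of 0.05, and was tested on simulated data first. A further fit used libraries shifted to the same median. The members and gene lists were chosen with earlier results of these data known. Named are the 5 greatest changes each way past the threshold, up to 3 each way apart from the members' median, Rplp0, Rps6, Rpl5, Rpl11, the paralogs, Alb and Nfkb1, up to 2 genes each way per list, and the 5 genes most alike. Alternatives were quantile normalization, other filters and pseudocounts, 2-group fits, a replicate block, WT PBS 2 included, and libraries left out. Values of other single members and of single libraries were chosen after they were seen. One gene that this rule names is not reported here.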

Additional observations from a re-analysis of the deposited data

Results flagged for a closer look

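Within groups of 5 or 6 libraries, 156 sets of values of named members and the shares of reads were examined for 1 library far from the others, and 32 values were found. For a single set chance gives about 1 in 20. The sets share libraries and are not independent, so the 32 values cannot be set against that rate. The share of reads on the members was lowest in WT DMSO 2 (0.718%) and in WT PBS 2 (0.385%).

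WT DMSO 2 held most of them, in log2 CPM. It was lowest for Rpl12 (6.15), Rpl22l1 (-0.19), Rpl29 (2.19), Rpl34 (4.73), Rpl35a (3.97), Rpl41 (6.83), Rpl7l1 (5.11), Rplp0 (7.44) and Rplp1 (5.43). It was also lowest for the small subunit genes Rps14 (3.79), Rps15a (4.39), Rps18 (5.08), Rps19 (4.72), Rps27 (3.34) and Rps9 (6.39). It was highest for Rpl22 (6.63), Rps2 (8.22) and Rps24 (7.83).

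PiZ 4 was lowest for Rpl12 (7.71), Rpl34 (5.11), Rplp0 (8.71), Rps15a (6.49), Rps2 (9.13) and Rps9 (7.82), and highest for Rps27l (7.33). PiZ p50KO 3 was lowest for Rpl34 (4.88) and highest for Rpl24 (1.81). WT TNFa 6 was lowest for Rpl12 (7.26). One tunicamycin library with no matched number was lowest for Rpl11 (7.92) and Rpl22 (6.74).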

How the results depend on the processing

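Of 2953 values recomputed, 2348 kept their direction and their side of the threshold, 563 lost the call, 21 gained one and 21 turned; for tunicamycin 667 of 672 kept both. The causes were not tested. Counts of members in this section stand without the share of all genes called, which is given above for some settings only. They do not show whether members were called more often than other genes. Shifting libraries to the same median moved the medians to -0.14 (PiZ against WT), -0.07 (p50KO against PiZ), -0.23 (p50KO against WT) and 1.09 (tunicamycin, and 1.02 with WT DMSO 2 also left out, an alternative chosen after seeing the data). It left 1 higher and 10 lower in PiZ, 1 lower in p50KO against PiZ, and 0 higher and 3 lower in p50KO against WT. In PiZ it turned Rplp0 (-0.03), Rps6 (-0.20), Rpl5 (-0.15), Rpl11 (-0.18), Rpl22 (-0.12), Rpl7l1 (-0.28), Rpl7 (-0.19), Rpl35a (-0.49), Mrpl54 (-0.03) and Mrpl16 (-0.09). Quantile normalization gave 24 higher and 2 lower in PiZ (Rpl35a at -0.32), 18 lower in p50KO against PiZ, and 0 higher and 1 lower in p50KO against WT. With no filter the counts were 17 lower in p50KO against PiZ and 0 higher in p50KO against WT, and with only the groups compared they were 9 and 0, with 1 lower in PiZ.

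With WT PBS 2 the medians were 0.69 (PiZ), 0.27 (TNFa) and 0.35 (p50KO against WT), with 14 higher in PiZ, 0 lower in p50KO against PiZ, 0 higher in p50KO against WT, and 2, 0 and 0 members apart from the member median in these. With the shift added, TNFa was at 0.49, p50KO against PiZ at -0.07 with 0 lower, p50KO against WT at 0.39 with 0 higher, and PiZ had 1 higher. Mrpl14 in PiZ turned to 0.41, and to 0.19 with the shift. Without the libraries labelled PiZ p50KO 1 and 2, 5 were lower against PiZ, and 5 higher and 1 lower against WT. With the shift added, these were 1 higher and 0 lower (median 0.03), and 2 and 2. Against PiZ this turned Rps6 (0.04), Rpl5 (0.08), Rpl22 (0.08), Rps27l (0.06), Twistnb (0.02), Eif2s1 (0.10), Eif3e (0.03) and Mrpl54 (0.03).

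A replicate block by label number gave 1 lower in PiZ (41 higher), 0 lower in p50KO against PiZ and 0 higher in p50KO against WT. Deviations of same-numbered libraries correlated from -0.23 to 0.56, the highest for WT PBS 4 with PiZ 4. Whether same-numbered libraries share more than a number was not tested.

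Leaving out 1 library at a time gave, in PiZ, 33 to 60 higher, 0 to 1 lower, medians of 0.31 to 0.42 and 4 to 8 members apart. In p50KO against PiZ it gave 17 (without PiZ p50KO 2) to 47 (without PiZ 4) lower, medians of -0.39 to -0.27 and 1 to 2 apart. In p50KO against WT it gave 0 to 2 higher, medians of -0.06 to 0.04 and 0 to 3 apart. For TNFa it gave 0 calls and medians of -0.07 to -0.03, and for tunicamycin 78 to 79 higher, medians of 1.40 to 1.63 and 13 to 28 apart. The paralog differences after tunicamycin ran from 1.44 to 2.10 (Rpl22l1), -0.58 to -0.44 (Rpl7l1) and -1 to -0.53 (Rps27l).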

Other observations

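Pseudogenes of ribosomal proteins, which copy the spliced messages, were counted as genes of their own in the tables. Of 306 listed, the filter left 96 in the table with PiZ and 108 in the table with tunicamycin. After tunicamycin 106 of 108 were called higher (45.3% of all genes), with a median of 1.49, close to that of the protein-coding members. In PiZ against WT PBS 9 of 96 were higher and 3 lower, against 45.6% and 6.19% of all genes, and a few moved far more than any protein-coding member. Rps2-ps10 was 6.41 to 7.51 log2 CPM in WT PBS and 6.82 to 7.70 in TNFa, but 2.97, 2.97, 2.28, 1.49 and 2.91 in PiZ 1 to 5. It was 7.09 and 7.15 in the libraries labelled PiZ p50KO 1 and 2 and 0.97, 2.47 and 2.83 in the other 3. The log2 fold change in PiZ was -4.66 (SE 0.82, limma adjusted p = 9.03e-05). Of the 50-base stretches of Rps2, 71.3% occur in other genes.

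Rps2-ps13 (-2.33) and Rps2-ps5 (-1.37) also fell in PiZ. Rpl34-ps1 rose by 2.86 (SE 0.44, limma adjusted p = 2.07e-05), at 1.05 to 2.25 in WT PBS, 3.94 to 4.93 in PiZ, and 2.25, 2.02, 4.05, 4.74 and 4.64 in PiZ p50KO 1 to 5, with libraries 1 and 2 in or near the wild-type range. Rps7-ps3 rose by 3.58 (SE 0.2, limma adjusted p = 6.19e-11), at 1.14 to 1.70 in WT PBS and 4.55 to 5.37 in PiZ, and at 0.99 to 2.04 in PiZ p50KO, where no library reached the PiZ range. These pseudogenes were chosen after their values were seen, and whether reads of the parent genes reached them was not tested.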
